A study of Ovis aries with 15 samples.

Results

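The genes described here are those that remove superoxide and peroxides and keep thiols reduced: superoxide dismutases, catalase, glutathione peroxidases, peroxiredoxins, the thioredoxin and glutaredoxin systems, the enzymes that make, reduce and use glutathione, and the regulators NFE2L2 and KEAP1. They were chosen as 42 listed gene symbols, and 36 of these stand as the name of a feature among the 24691 features of the deposited table. Of the other 6 symbols, SOD2, GPX7 and TXNRD2 were found only through their RefSeq gene ID, under a feature named by a number, and their values are given separately. TXNIP, GSTO1 and GSTM3 were found by neither route and were not analysed here. Of the 36 genes, 35 passed the filter on low read numbers, which left 13345 features in all, and GPX2, the gastrointestinal glutathione peroxidase, did not, with at most 3 reads in any library.

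The study compared the mammary gland of Romney ewes in late pregnancy, at day 135 of gestation, and in lactation, at day 15 post partum. Tissue cores of the gland, taken by needle from 2-year-old ewes in their first pregnancy and lactation that were kept under the same farm conditions, were pooled to give 9 late pregnancy and 6 lactation libraries for RNA sequencing. A pool held RNA of 3 ewes in late pregnancy and of 2 in lactation by the deposited labels, whereas the methods give 3 for both. The ewes descended from dams fed ad libitum (HM), to maintenance (MM) or below maintenance (LM) in early gestation and to maintenance afterwards, so that each dam feed is represented by 3 late pregnancy and 2 lactation pools. Ewes were biopsied in both states, and which ewes entered which pool is not given in the sources used here, so the p-values measure the spread between pools.

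Superoxide dismutases turn superoxide into hydrogen peroxide, which catalase, the glutathione peroxidases and the peroxiredoxins then break down. Glutathione peroxidases draw on glutathione, which glutathione reductase restores, and peroxiredoxins draw on thioredoxin, which thioredoxin reductases restore, both at the cost of NADPH. Several of these enzymes carry selenocysteine. The transcription factor NRF2, encoded by NFE2L2 and held in check by KEAP1, drives many of the genes, and a secretory epithelium at peak synthesis makes peroxide in mitochondria, in the endoplasmic reticulum during disulfide formation, and through the milk fat globule protein xanthine oxidoreductase.

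Late pregnancy libraries held 6471237 to 16898986 reads on exons and lactation libraries 9014506 to 24001031. Because the 7 milk protein genes take up most lactation reads, the share of the 36 genes was 0.421% to 0.485% before and 0.147% to 0.182% after birth, and 0.537% to 0.59% and 0.588% to 0.691% once those 7 genes were left aside. Levels are therefore given as TMM-scaled CPM, that is, counts scaled to a library size that is adjusted so that the typical tested gene stands at the same level in both states, and changes are the log2 of lactation over late pregnancy on that scale. The TMM factor was 1.56 to 1.83 in late pregnancy and 0.432 to 0.505 in lactation. On plain library sizes the median of all tested genes moved to -1.94 on the log2 scale, against -0.03 with TMM, and only SOD3, GPX1 and GPX3 were then called higher. Every change below is relative to that typical gene. On plain library sizes 3 genes were called higher and 31 lower.

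Luminal epithelium was present in both states, with summed levels of its 6 markers at 1417 to 1736 CPM in late pregnancy and 2290 to 2551 CPM in lactation, and 4 of the 6 rose. Markers of other cell types moved with the state: all 6 T cell markers, 5 of 6 fibroblast markers, 4 of 5 endothelial markers and 3 of 4 tested macrophage markers fell, with summed levels of 38.7 to 61.4 against 12.8 to 19.3 CPM for T cells, 1311 to 2092 against 618.5 to 997.5 for fibroblasts, 198.5 to 271.9 against 138.2 to 195.8 for endothelium and 99.9 to 132.3 against 49.1 to 72.5 for macrophages. Myoepithelial markers were mixed, with 2 of 5 higher and 2 lower (526.5 to 592.8 against 485.2 to 713.7 CPM). The 4 erythrocyte markers measured summed to 0.183 to 1.9 CPM in late pregnancy and 0 to 0.528 CPM in lactation, with HBM and ALAS2 at 0 reads in all lactation libraries. Adipocyte markers summed to 21 to 40.9 against 69.5 to 89 CPM, but ADIPOR2 made up most of the lactation sum. ADIPOR2, the 1 of 3 tested that was higher, stood at 13.1 to 17.8 against 61.1 to 76.8 CPM. ADIPOQ and CIDEC were not called, at log2 changes of -0.35 and -0.61, and PLIN1 and LEP reached at most 1.58 and 0.342 CPM. B and plasma cell markers were at 2.78 to 4.45 against 3.52 to 8 CPM in sum, with MZB1 higher and CD79A lower, and neutrophil markers at 1.37 to 2.78 against 5.5 to 16.9 CPM, with MPO alone at 2.86 to 15.7 CPM in lactation, S100A9 lower and S100A8 at most 0.659 CPM in any library. In such bulk tissue, fewer cells of a type and less RNA per cell cannot be told apart, and the part of cell mixture in the changes below was not tested.

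Between the states, the extracellular superoxide dismutase SOD3, the glutathione peroxidases GPX1, GPX3 and GPX4 and the quinone reductase NQO1 rose. So did the single-exon feature named for the glutaredoxin GLRX, with the limit given below. Falls were seen for 4 of the 6 peroxiredoxins, catalase, the transferase GSTK1 and the peroxidase GPX8. Of the 35 tested genes, 18 were called higher in lactation (51.4%, against 33.1% of all tested genes) and 10 lower (28.6%, against 35.2%), with edgeR's quasi-likelihood test at an adjusted p under 0.05. More than 2-fold higher were 5 (14.3%, against 9.13% of all genes), and more than 2-fold lower were 2 (5.71%, against 13%). In 15 of the 35 (42.9%, against 40.2% of all genes) no library of one state reached the range of the other. The median change of the 35 was 0.18 on the log2 scale, beside -0.03 for all tested genes. The split depended on scaling: on the quantile-normalized RPKM, tested with limma, 10 were higher and 14 lower, beside 30.8% higher and 38.1% lower of all tested genes, with a median of -0.05, as over all genes. With upper quartile scaling 13 were higher and 15 lower, beside 25.6% and 44.9% of all tested genes, with a median of 0.03, beside -0.18 for all genes. DESeq2 called the same 18 and 10. The counts given below for single families and gene lists stand beside the same 33.1% higher, 35.2% lower and 40.2% without overlap among all tested genes, and nothing is read from a count near these shares.

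**Figure D1:**
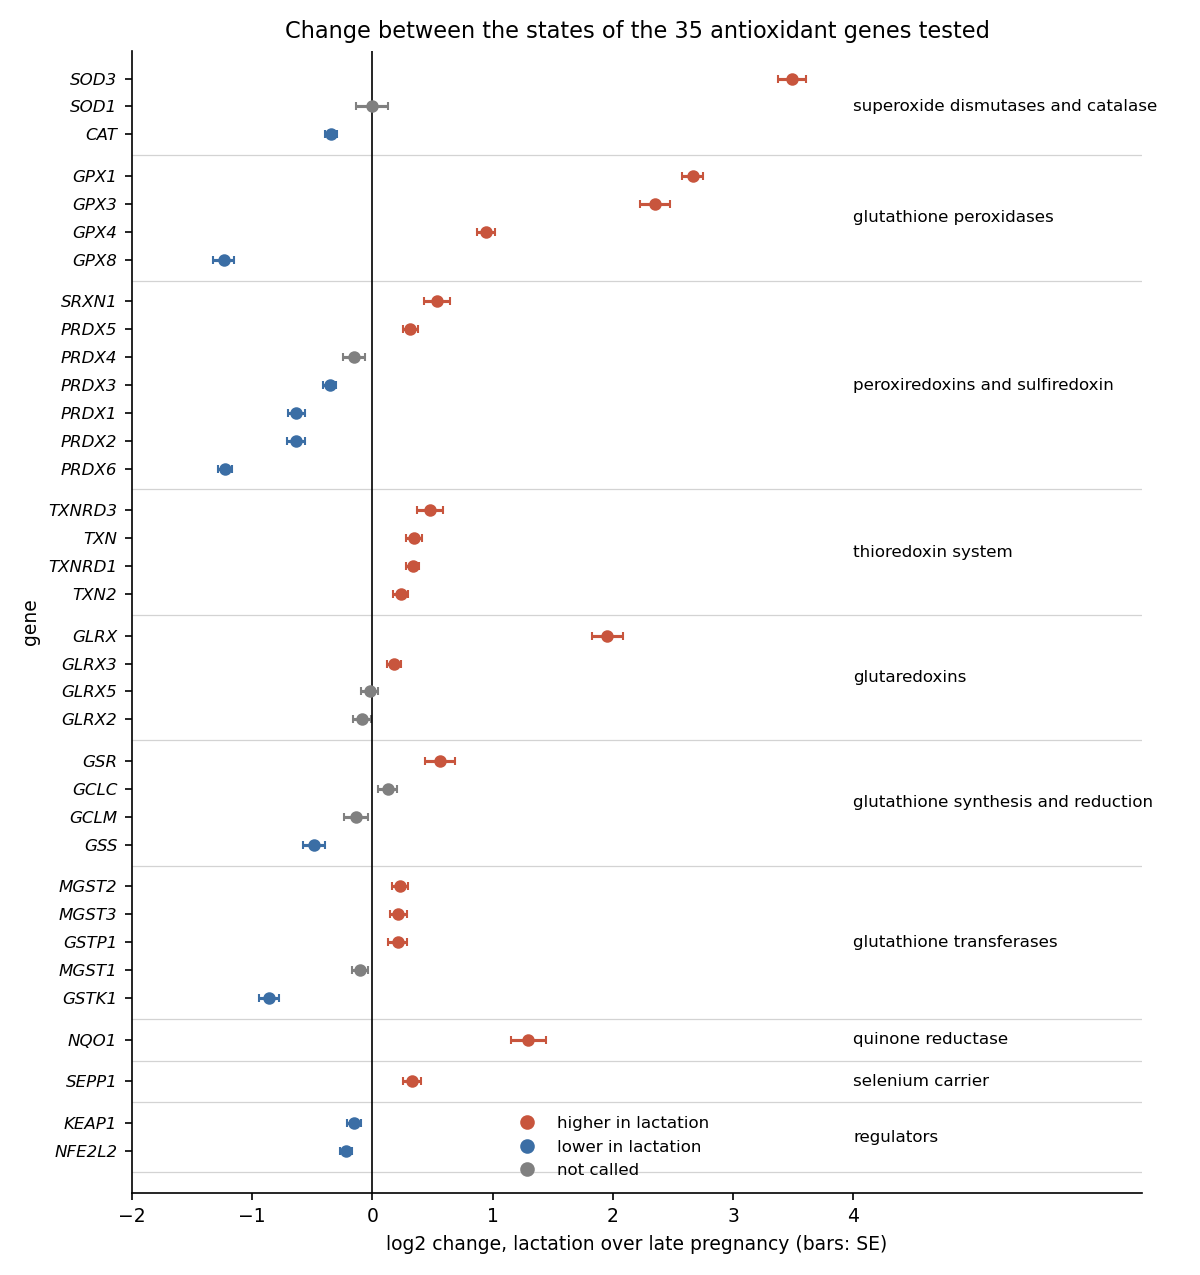
Log2 change of lactation over late pregnancy with its SE for the 35 tested genes, grouped by role, red where called higher, blue where called lower and grey where not called (edgeR). SOD3, GPX1, GPX3, GLRX and NQO1 lie above 1, GPX8 and PRDX6 below -1, and most other changes lie within 1 of 0.

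SOD3, the extracellular superoxide dismutase (chromosome 6, 44172139 to 44245389 in the coordinates of the deposited table, whose build is Oar_v3.1 by the labels and version 3.2 by the methods), had the largest rise of the 35 genes. Its level in late pregnancy ran from 6.23 to 9.09 CPM with a median of 7.13, and in lactation from 56.3 to 113 CPM with a median of 80.5. No lactation library came near a late pregnancy library. The change was 11.2-fold, 3.49 ± 0.11 (log2 ± SE; adjusted p = 1.8e-15, edgeR). Per kilobase of exon, SOD3 stood at percentile 38.9 of all tested genes in late pregnancy and at percentile 90.5 in lactation.

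Catalase (CAT), the peroxisomal enzyme that splits hydrogen peroxide, fell. It stood at 76.4 to 88.2 CPM in late pregnancy (median 79.8) and at 60.8 to 67.8 CPM in lactation (median 63.5). The states did not overlap, although the change was small, -0.34 ± 0.05 (adjusted p = 3e-06, edgeR).

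SOD1, the cytosolic superoxide dismutase, showed no called change at -0.0039 ± 0.13 (adjusted p = 0.98, edgeR), with 10.9 to 21.2 CPM in late pregnancy and 13.4 to 18.5 CPM in lactation. That value rests on a feature of 1 exon and 709 bases (chromosome 1, 122094133 to 122094841), of whose reads 0.026% were uniquely placed. A neighbouring feature of 5 exons and 781 bases, LOC101114582, lies 248 bases away and was read more deeply, at 103.6 to 123.2 CPM in late pregnancy and 76.7 to 113.4 CPM in lactation, of which 21.7% were uniquely placed. It was lower in lactation by -0.29 ± 0.08 (adjusted p = 0.002, edgeR). Both features share reads with other places in the genome, so neither value can be assigned to SOD1 with certainty. The neighbour was looked at after the values of SOD1 were seen. SOD2, the mitochondrial enzyme, found by gene ID as LOC780457, stood at 119.2 to 177.7 CPM in late pregnancy and 140.5 to 233.9 CPM in lactation. The states overlapped, and the rise of 0.38 ± 0.10 (adjusted p = 0.0025, edgeR) shrank to 0.07 on the quantile-normalized values.

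Of the 4 tested glutathione peroxidases 3 rose and 1 fell, and none of the 4 overlapped between states, where 33.1% of all tested genes rose, 35.2% fell and 40.2% did not overlap. GPX1, the main soluble enzyme (chromosome 19, 50698256 to 50699318), stood at 28.1 to 41.2 CPM in late pregnancy (median 32.9) and at 190.1 to 252 CPM in lactation (median 213.9). It rose 6.34-fold, 2.66 ± 0.09 (adjusted p = 1.7e-15, edgeR). GPX3, the enzyme secreted into plasma and milk (chromosome 5, 59808218 to 59816096), stood at 119.3 to 232.3 CPM in late pregnancy (median 174.3). In lactation it reached 769.9 to 1092 CPM (median 843.8), a rise of 5.1-fold, 2.35 ± 0.12 (adjusted p = 1.7e-12, edgeR). Per kilobase of exon GPX3 became the most abundant of all the measured genes of the set in lactation, at 701.5 ± 114 CPM per kb (SD, n = 6), percentile 99.3 of all tested genes.

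GPX4, which reduces phospholipid hydroperoxides in membranes, rose less than those 2. Its levels were 31.2 to 45.8 CPM in late pregnancy (median 36.4) and 63.3 to 78.4 CPM in lactation (median 69.2), a change of 0.94 ± 0.08 (adjusted p = 1.3e-09, edgeR). Of its reads, 84.8% were uniquely placed. On unique reads alone its change was 0.95.

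GPX8, a peroxidase of the endoplasmic reticulum that lacks selenium, went the other way. Late pregnancy libraries held 30.3 to 37.5 CPM (median 34.5) and lactation libraries 11.9 to 18.2 CPM (median 14.3), and no library crossed. The change was -1.24 ± 0.08 (adjusted p = 8.9e-11, edgeR). Only 29.2% of its reads were uniquely placed, and on these the change was -0.84. GPX7, the related enzyme of the same compartment, found by gene ID as LOC101115673, also fell, from 4.66 to 7.32 CPM in late pregnancy to 1.36 to 2.2 CPM in lactation (-1.58 ± 0.15, adjusted p = 7.9e-09, edgeR). As a share of the family's reads per kilobase, GPX3 made up 52.9 ± 4.43% in late pregnancy (SD, n = 9) and 65.8 ± 2.93% in lactation (n = 6), GPX1 16.1 ± 1.84% and 24.8 ± 2.64%, GPX4 17.1 ± 1.66% and 7.97 ± 0.78%, and GPX8 12.5 ± 1.98% and 1.26 ± 0.14%.

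**Figure D2:**
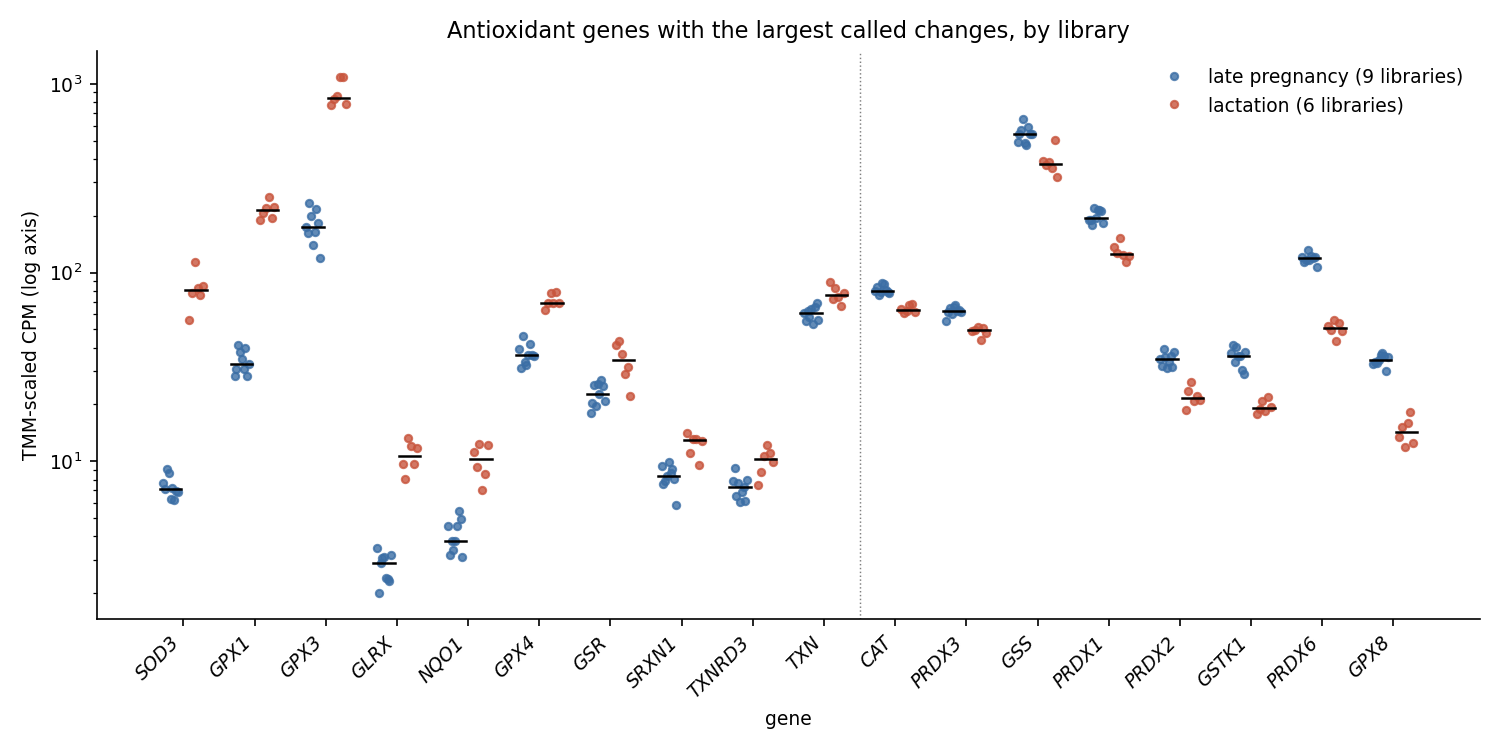
TMM-scaled CPM on a log axis in each library for the 10 genes with the largest called rise (left of the dotted line) and the 8 with the largest called fall, late pregnancy in blue and lactation in red, with the median of each state as a bar. For SOD3, GPX1, GPX3, GLRX, NQO1 and GPX4 all lactation libraries lie above all late pregnancy libraries, and for CAT, PRDX1, PRDX2, PRDX3, GSTK1, PRDX6 and GPX8 below, while GSR, SRXN1, TXNRD3, TXN and GSS overlap.

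Of the 7 genes of peroxiredoxins and their repair enzyme, 4 fell and 2 rose. PRDX6, which reduces phospholipid peroxides with glutathione (chromosome 12, 52956285 to 52969475), fell most. It was at 106.5 to 131.5 CPM in late pregnancy (median 119.8) and at 43.2 to 56 CPM in lactation (median 50.8), 2.34-fold lower, -1.23 ± 0.06 (adjusted p = 5.2e-13, edgeR).

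The cytosolic PRDX1 and PRDX2 fell by like amounts. PRDX1 was at 179.3 to 220.8 CPM in late pregnancy (median 193.3) and 113 to 151.8 CPM in lactation (median 125.1), a change of -0.63 ± 0.07 (adjusted p = 8.2e-08, edgeR). PRDX2 was at 31.1 to 39.5 CPM (median 34.8) and 18.7 to 26.5 CPM (median 21.7), a change of -0.64 ± 0.07 (adjusted p = 2.8e-07, edgeR). Neither gene overlapped between the states. PRDX2 is abundant in red blood cells, and the part of blood in its fall was not tested. Among the listed erythrocyte markers, the globin genes HBB, HBA1 and HBA2 were not found.

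PRDX3, the mitochondrial form, fell from a median of 62.6 CPM (55.5 to 67.1) to 49.4 CPM (43.8 to 51.3), again without overlap, by -0.36 ± 0.05 (adjusted p = 4.6e-06, edgeR). PRDX4, the secretory pathway form, was not called, with 16.3 to 20.2 CPM in late pregnancy and 12.1 to 19.6 CPM in lactation (-0.15 ± 0.09, adjusted p = 0.14, edgeR), although upper quartile scaling, the quantile-normalized values and leaving out lactation replicate 5 (-0.22, adjusted p = 0.047, edgeR) called it lower.

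PRDX5, found in mitochondria, peroxisomes and cytosol, rose from a median of 85.5 CPM (70.5 to 100.9) to 109.7 CPM (100 to 116.6), by 0.32 ± 0.07 (adjusted p = 0.00028, edgeR), and that rise was 0.03 and not called on the quantile-normalized values. The states of PRDX5 overlapped at their edges. SRXN1, the sulfiredoxin that restores over-oxidized peroxiredoxins, rose from 5.89 to 9.87 CPM (median 8.35) to 9.57 to 14.1 CPM (median 12.9), by 0.54 ± 0.11 (adjusted p = 0.00023, edgeR), with overlap between the states. In the family's reads per kilobase, PRDX1 remained the largest part at 42.9 ± 1.71% in late pregnancy and 36.8 ± 2.01% in lactation, while PRDX5 went from 18.5 ± 1.26% to 30.7 ± 1.28% and PRDX6 from 13.9 ± 0.57% to 7.9 ± 0.59% (SD, n = 9 and 6).

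The 4 tested genes of the thioredoxin system were all called higher with changes from 0.24 to 0.48, but only TXNRD1 and TXNRD3 stayed called on the quantile-normalized values, where TXN2 was at -0.02. TXN, the cytosolic thioredoxin, was at 53.2 to 69 CPM in late pregnancy (median 61.2) and 66.1 to 89.2 CPM in lactation (median 76.3), a change of 0.35 ± 0.07 (adjusted p = 0.00018, edgeR). TXN2, its mitochondrial counterpart, was at 40.2 to 53.6 CPM (median 48.2) and 52.1 to 62.8 CPM (median 54.2), a change of 0.24 ± 0.06 (adjusted p = 0.0023, edgeR). Both overlapped between the states.

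TXNRD1, the cytosolic thioredoxin reductase, was at 28.9 to 36.2 CPM in late pregnancy (median 31) and 37.9 to 43.8 CPM in lactation (median 39.7). It was the 1 gene of this system without overlap, at 0.34 ± 0.05 (adjusted p = 1.6e-05, edgeR). TXNRD3, a reductase that also carries a glutaredoxin domain, was scarcer and rose from a median of 7.27 to 10.3 CPM (0.48 ± 0.11, adjusted p = 0.00076, edgeR). TXNRD2, the mitochondrial reductase, found by gene ID as LOC101121885, was not called at 15 to 20.4 CPM in late pregnancy and 14.9 to 16.7 CPM in lactation (-0.11 ± 0.07, adjusted p = 0.18, edgeR), and was called lower on the quantile-normalized values (-0.17).

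Among the 4 glutaredoxins, which reduce mixed disulfides of proteins with glutathione, GLRX stood apart. It was at 2.01 to 3.46 CPM in late pregnancy (median 2.88) and 8.09 to 13.3 CPM in lactation (median 10.7), with no overlap and a rise of 1.95 ± 0.13 (adjusted p = 6.6e-11, edgeR). The feature named GLRX has a single exon of 321 bases on chromosome 2 (116429163 to 116429483). Whether its reads come from the multi-exon glutaredoxin gene was not tested. In the paper's list of gene clusters, GLRX stands with SPATA9, RHOBTB3 and ELL2, and whether that entry is this feature was not tested. GLRX3, an iron-sulfur cluster protein, was called higher at 0.18 ± 0.06 (adjusted p = 0.0089, edgeR), a change that was 0.00 on the quantile-normalized values and not called on whole-gene reads (0.11, adjusted p = 0.062, edgeR). GLRX2 and GLRX5, both mitochondrial, were not called at -0.08 ± 0.07 and -0.02 ± 0.07 (adjusted p = 0.33 and 0.78, edgeR). Their levels lay between 18 and 28.6 CPM in all libraries.

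For the making and recycling of glutathione, the step enzymes did not move together. GCLC and GCLM, the catalytic and modifier subunits of the rate-limiting glutamate-cysteine ligase, were not called. GCLC was at 14.8 to 19.1 CPM in late pregnancy (median 16.4) and 14.1 to 20.6 CPM in lactation (median 18.4), a change of 0.13 ± 0.08 (adjusted p = 0.17, edgeR). GCLM was at 8.72 to 12.3 CPM (median 9.95) and 7.87 to 10.8 CPM (median 9.23), a change of -0.14 ± 0.10 (adjusted p = 0.23, edgeR). The states overlapped for both subunits. Without lactation replicate 4, GCLC was called higher at 0.18 (adjusted p = 0.041, edgeR), as it was on reads on the whole gene at 0.29 (adjusted p = 0.00034, edgeR). With upper quartile scaling GCLM was called lower at -0.29 (adjusted p = 0.016, edgeR).

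GSS, the synthetase of the second step, fell from 473.7 to 654.5 CPM (median 543.9) to 320.5 to 505.3 CPM (median 377.6), by -0.49 ± 0.09 (adjusted p = 7.1e-05, edgeR). A single lactation library reached the late pregnancy range. Per kilobase of exon GSS stood far above the other 3 genes of synthesis and reduction, with 93.8 ± 0.84% of their sum in late pregnancy (SD, n = 9) and 89.6 ± 1.6% in lactation (n = 6). Its feature (chromosome 13, 63792908 to 63817519) begins 633 bases from a highly read neighbour, LOC101114126, named ACSS2 by its gene ID, an acetyl-CoA synthetase, which rose by 0.85 ± 0.07 (adjusted p = 1.1e-09, edgeR) from a median of 740.7 to 1347 CPM. Reads of that neighbour in GSS were not tested for.

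GSR, the glutathione reductase, rose from 18.1 to 26.9 CPM (median 22.8) to 22.2 to 43.4 CPM (median 34.2), by 0.56 ± 0.12 (adjusted p = 0.00044, edgeR). The states overlapped and GSR varied more between lactation libraries than the other tested genes of the set, with a coefficient of variation of 23.7% there (n = 6) against 13.7% in late pregnancy (n = 9).

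Of the 5 tested glutathione transferases 3 were called higher and 1 lower. GSTK1, the kappa-class enzyme of mitochondria and peroxisomes, fell from 29.2 to 41.4 CPM (median 36.1) to 17.8 to 21.8 CPM (median 19.3), without overlap, by -0.86 ± 0.08 (adjusted p = 1.5e-08, edgeR). GSTP1, the pi-class cytosolic enzyme, and the membrane-bound MGST2 and MGST3 were called higher by 0.21 ± 0.08, 0.23 ± 0.07 and 0.22 ± 0.07 (adjusted p = 0.028, 0.0042 and 0.014, edgeR), but were at -0.05, -0.04 and -0.05 and not called on the quantile-normalized values. The call of GSTP1 was also lost without lactation replicate 3, 4 or 5 (adjusted p = 0.066, 0.06 and 0.054, edgeR), and those of GSTP1 and MGST3 without the filter on low reads (adjusted p = 0.099 and 0.065, edgeR). MGST1 was not called at -0.11 ± 0.07 (adjusted p = 0.16, edgeR), with 184.3 to 259.8 CPM over all libraries, and upper quartile scaling and the quantile-normalized values called it lower.

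NQO1, a quinone reductase and standard NRF2 target, rose from 3.1 to 5.43 CPM (median 3.78) to 7.04 to 12.3 CPM (median 10.3), without overlap, by 1.29 ± 0.15 (adjusted p = 1.5e-07, edgeR). SEPP1, the secreted selenoprotein that carries selenium, was among the most abundant of the set in both states, at 371 to 483.4 CPM in late pregnancy (median 418.9) and 476.4 to 655.9 CPM in lactation (median 516.7). It was called higher by 0.33 ± 0.08 (adjusted p = 0.00067, edgeR), whereas on the quantile-normalized values it was at -0.07 and not called.

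Both regulators were called lower. NFE2L2 was at 51 to 59.5 CPM in late pregnancy (median 54.7) and 41.9 to 50.3 CPM in lactation (median 47.9), without overlap, a change of -0.22 ± 0.05 (adjusted p = 0.00084, edgeR). That call was lost on reads on the whole gene, introns included, where NFE2L2 was at -0.05 (adjusted p = 0.36, edgeR). KEAP1 was at 27 to 33.2 CPM (median 31.3) and 25.7 to 30.6 CPM (median 28.4), with overlap, a change of -0.15 ± 0.06 (adjusted p = 0.025, edgeR). The call of KEAP1 was lost without lactation replicate 2 (-0.13, adjusted p = 0.064) or 6 (-0.12, adjusted p = 0.076, both edgeR). It was also lost within lane 7 and within lane 8 (adjusted p = 0.12 and 0.17, edgeR) and with pools blocked by feed and pool number (adjusted p = 0.096, edgeR). The same held on plain library sizes with the median of all genes set to 0 (-0.12, adjusted p = 0.17, edgeR). Listed as NRF2 targets were 8 genes of the set: GCLC, GCLM, NQO1, SRXN1, TXNRD1, TXN, GSR and PRDX1. Of these 8, 5 rose, 1 fell (PRDX1) and 2 were not called, with a median of 0.34. On the quantile-normalized values the median was 0.16, and TXN, 1 of the 5 that rose, was at 0.04 and not called.

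Grouped by where the proteins work, the 3 secreted members SOD3, GPX3 and SEPP1 were all called higher (summed 544.8 to 692 against 1307 to 1671 CPM), although SEPP1 was not on the quantile-normalized values. All 6 tested selenoprotein genes found by symbol, GPX1, GPX3, GPX4, TXNRD1, TXNRD3 and SEPP1, were called higher with a median of 0.71, with the same exception. The selenoprotein gene TXNRD2, found by gene ID and outside that count, was not called (-0.11) and was called lower on the quantile-normalized values (-0.17). The list of mitochondrial genes held 4 tested ones found by symbol, with a median of -0.05. Of these TXN2 was higher, PRDX3 was lower, and GLRX2 and GLRX5 were not called. GSTK1 (-0.86, called lower) and PRDX5 (0.32, called higher, but 0.03 on the quantile-normalized values), also found in mitochondria, were not on that list. Outside that count, among genes found by gene ID, SOD2 was called higher (0.38, but 0.07 on the quantile-normalized values) and TXNRD2 was not called. Of the 5 tested in the endoplasmic reticulum and its membranes and found by symbol, 2 were higher (MGST2 and MGST3) and 1 lower (GPX8), with a median of -0.11. GPX7, found by gene ID and outside that count, was also lower (-1.58). For all these groups the values beside them are 33.1% higher and 35.2% lower among all tested genes.

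**Figure D3:**
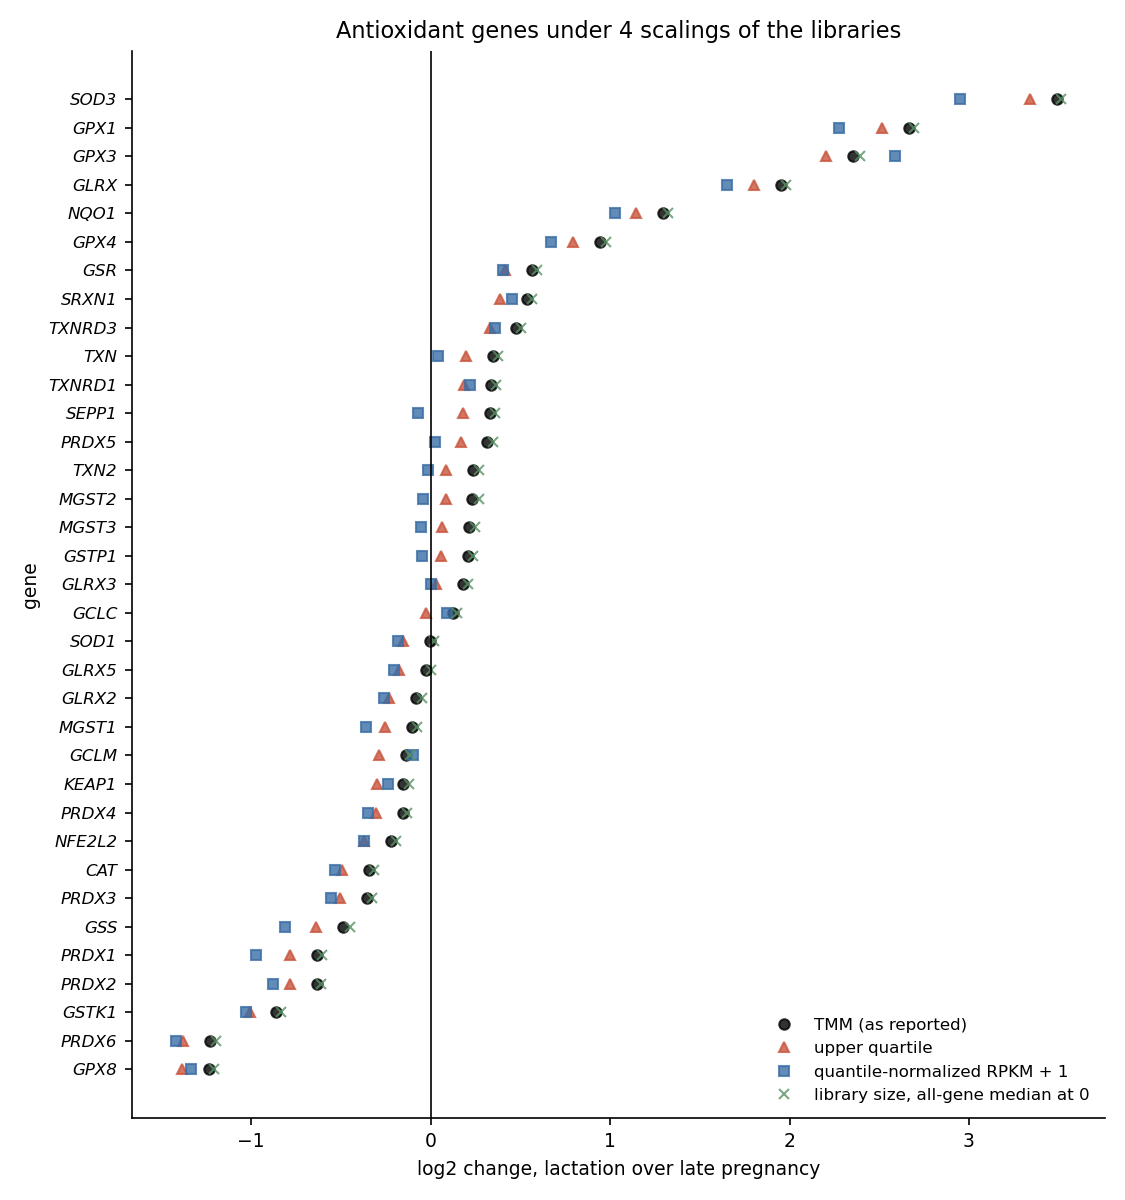
Log2 change of the 35 genes, ordered by their value with TMM, under 4 ways of putting the libraries on one scale. The 10 genes called lower lie below 0 under all 4, while TXN, SEPP1, PRDX5, TXN2, MGST2, MGST3, GSTP1 and GLRX3 lie between -0.07 and 0.04 on the quantile-normalized values.

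The 18 genes called higher differed in how far they depended on the scale. On the quantile-normalized values 10 of the 18 remained called (SOD3, GPX1, GPX3, GPX4, GLRX, NQO1, GSR, SRXN1, TXNRD1 and TXNRD3) and 8 did not (TXN, TXN2, PRDX5, GLRX3, GSTP1, MGST2, MGST3 and SEPP1), of which TXN2, GSTP1, MGST2, MGST3 and SEPP1 had a value below 0. All 10 genes called lower remained so, and 4 more were called lower (PRDX4, GLRX2, GLRX5 and MGST1). A lane number, 7 or 8, stands in the library names, though by their descriptions the libraries were each run on more than one lane and the reads combined. All LM pools carry lane 8 and both HM lactation pools carry lane 7, so lane and dam feed cannot be fully told apart. Within the 7 libraries of lane 7 (4 late pregnancy, 3 lactation) 11 genes were higher and 9 lower, beside 26.2% and 25.8% of all genes. Within the 8 of lane 8 (5 and 3) 14 were higher and 9 lower, beside 27.7% and 28.9% of all genes. Every gene called in a lane was also called over all libraries in the same direction. Of the 10 that remained on the quantile-normalized values, SRXN1 (0.39, adjusted p = 0.052) and TXNRD3 (0.31, adjusted p = 0.16) were not called within lane 7. GSR (0.36, adjusted p = 0.055, all edgeR) was not called within lane 8. SOD3 changed by 3.33 and 3.63 in lanes 7 and 8, GPX1 by 2.63 and 2.71, GPX3 by 2.28 and 2.41, and PRDX6 by -1.2 and -1.26.

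A ratio of 2 genes within a library does not depend on how libraries are scaled, so partner genes were compared as the log2 ratio of reads per kilobase. Of 12 pairs set, 11 could be computed, since TXNIP was not found, and 6 changed at an adjusted p under 0.05 by a two-sided exact permutation test over every assignment of the libraries to the states. The largest shift was between the extracellular and cytosolic superoxide dismutases. SOD3 to SOD1 went from -2.78 ± 0.38 in late pregnancy to 0.67 ± 0.24 in lactation (SD, n = 9 and 6; difference 3.45, exact permutation p = 0.0002, the smallest this design can give, adjusted p = 0.00073), with the limit on SOD1 given above.

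Within the glutathione peroxidases, GPX1 to GPX4 went from -0.09 ± 0.21 to 1.64 ± 0.18 (difference 1.73, exact permutation p = 0.0002, adjusted p = 0.00073), so that GPX1 stood at 0.941 times GPX4 per kilobase in late pregnancy and at 3.11 times in lactation. GPX3 to GPX4 went from 1.63 ± 0.24 to 3.05 ± 0.19 (difference 1.42, exact permutation p = 0.0002, adjusted p = 0.00073). In these 3 ratios the states did not overlap.

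Smaller shifts were found in the reductases and peroxiredoxins. TXNRD1 to TXNRD2 went from -0.16 ± 0.19 to 0.28 ± 0.11 (difference 0.45, exact permutation p = 0.0004, adjusted p = 0.0011). PRDX4 to PRDX1 went from -3.29 ± 0.18 to -2.85 ± 0.37 (difference 0.44, exact permutation p = 0.0062, adjusted p = 0.011) and PRDX3 to PRDX1 from -2.43 ± 0.13 to -2.16 ± 0.15 (difference 0.28, exact permutation p = 0.0026, adjusted p = 0.0057). All 3 overlapped between the states.

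The other 5 ratios did not pass. GCLC to GCLM was -0.25 ± 0.19 in late pregnancy and -0.03 ± 0.30 in lactation (exact permutation p = 0.11, adjusted p = 0.13), and NFE2L2 to KEAP1 0.78 ± 0.14 and 0.71 ± 0.14 (exact permutation p = 0.38, adjusted p = 0.38). TXN to TXN2 was 1.71 ± 0.15 and 1.82 ± 0.18 (exact permutation p = 0.23, adjusted p = 0.25), GSR to TXNRD1 0.15 ± 0.17 and 0.36 ± 0.32 (exact permutation p = 0.11, adjusted p = 0.13), and SOD1 to SOD2 -1.8 ± 0.40 and -2.16 ± 0.33 (exact permutation p = 0.091, adjusted p = 0.13). Without lactation replicate 6, GSR to TXNRD1 did pass, at a difference of 0.33 (exact permutation, adjusted p = 0.012). With the 5-exon neighbour in place of the SOD1 feature, SOD1 to SOD2 differed by -0.67 (exact permutation, adjusted p = 0.00055 over the 11 ratios).

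Within lanes 7 and 8, given as values and not tested there, the difference was 3.39 and 3.52 for SOD3 to SOD1, 1.73 and 1.74 for GPX1 to GPX4, 1.35 and 1.47 for GPX3 to GPX4, 0.38 and 0.50 for TXNRD1 to TXNRD2, 0.47 and 0.43 for PRDX4 to PRDX1 and 0.41 and 0.15 for PRDX3 to PRDX1. GSR to TXNRD1 differed by 0.46 in lane 7 and -0.01 in lane 8, and the lanes also differ in dam feed.

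**Figure D4:**
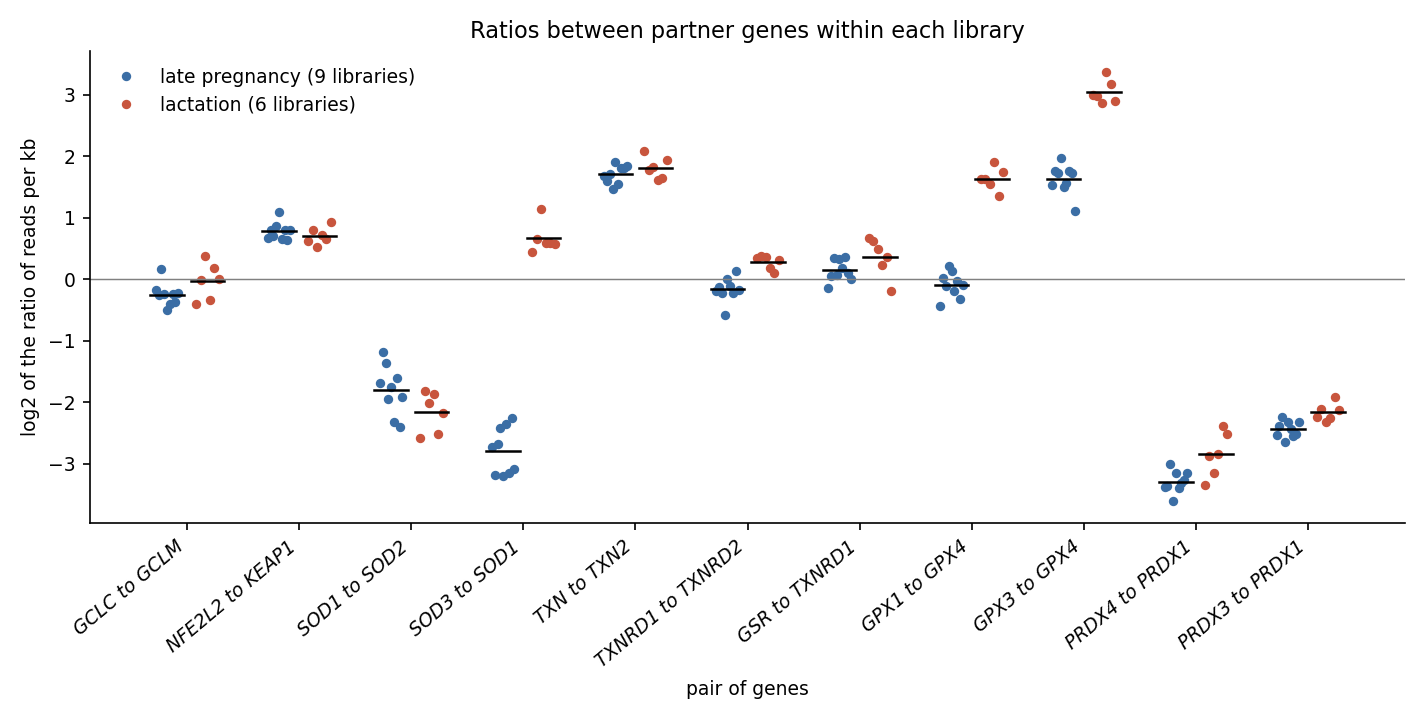
Log2 ratio of reads per kilobase between partner genes in each library, late pregnancy in blue and lactation in red, with the mean as a bar. SOD3 to SOD1, GPX1 to GPX4 and GPX3 to GPX4 lie in separate ranges in the 2 states, and the other 8 ratios overlap.

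Reads on introns, which unspliced RNA can give, were tested in the same way as exon reads, for 29 of the 36 genes that had enough of them. On introns 8 of the 29 were higher in lactation (against 29% of the 10344 features tested) and 10 lower (against 29%), with a median of -0.05. SOD3 changed on introns as on exons, at 3.52 and 3.49. The log2 ratio of intron to exon reads of each gene was then compared by the exact permutation test, a comparison added after the data were seen, over the 29 genes and SOD2 and TXNRD2. It rose in 5 of these 31 genes and fell in 7, with p-values adjusted over all 9832 features with enough intron reads, of which 19.3% rose and 13.2% fell, with a median shift of 0.05.

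Of the 5 that rose, NFE2L2 shifted most. Introns took 13.8% to 19.5% of all its reads in the late pregnancy libraries and 22.9% to 30.4% in the lactation libraries, without overlap, its intron reads were called higher (0.57, adjusted p = 7.9e-06, edgeR) and its exon reads lower, and the ratio shifted by 0.88 (exact permutation p = 0.0002, adjusted p = 0.002). GCLC (19.6% to 30.4% against 30.4% to 40.8%) and TXN (3.45% to 6.04% against 6.52% to 8.62%) shifted by 0.66 each (exact permutation p = 0.0002, adjusted p = 0.002 for both). TXNRD3 shifted by 0.39 (exact permutation p = 0.0004, adjusted p = 0.0033) and PRDX6 by 0.76 (exact permutation p = 0.0058, adjusted p = 0.023), the latter on 2 to 52 intron reads per library.

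The 7 that fell were GPX8 (-1.4), SEPP1 (-1.09), MGST1 (-0.98), GPX3 (-0.97), GSTK1 (-0.65), PRDX3 (-0.51) and GSTP1 (-0.44), with adjusted p from 0.002 to 0.021 by the exact permutation test. For MGST1, not called on exons, intron reads fell by -1.17 (adjusted p = 8.2e-07, edgeR), from 4.48% to 8.03% of its reads to 2.16% to 3.85%. For SEPP1, exon reads were called higher and intron reads lower (-0.81, adjusted p = 0.005, edgeR), on 7 to 110 intron reads per library. For GPX3 intron reads rose as well (1.22, adjusted p = 1.2e-05, edgeR), but less than exon reads, on 8 to 57 reads. Intron counts also take in reads of unannotated exons and of genes that overlap an intron, whose part was not tested.

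**Figure D5:**
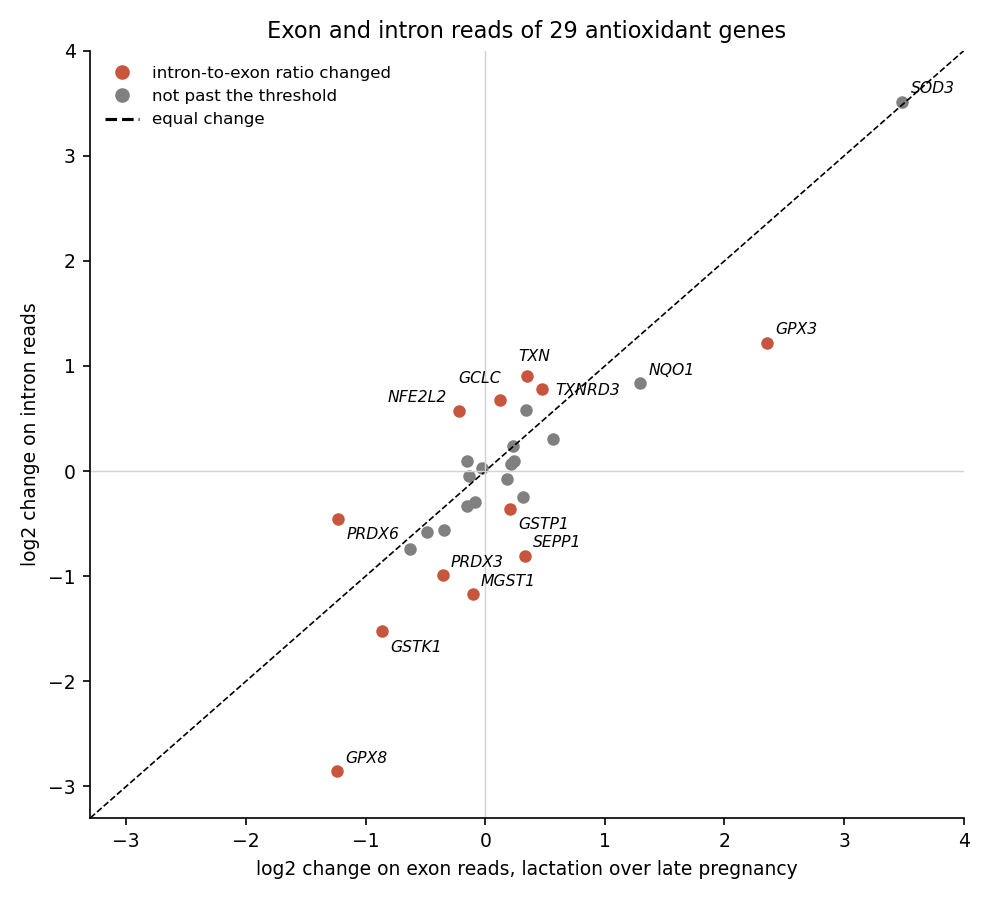
Log2 change on intron reads against that on exon reads for 29 genes, red where the intron-to-exon ratio differed between states at an adjusted p under 0.05 (exact permutation) and grey elsewhere, with a dashed line where both change equally. SOD3 lies on the line, NFE2L2, GCLC and TXN lie above it, and GPX8, SEPP1, MGST1 and GPX3 lie below it.

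No gene of the set was called for the feed of the ewes' dams. Of the genes found by gene ID, which are outside the 35 counted here, SOD2 had an unadjusted p of 0.029 in late pregnancy and 0.035 in lactation (edgeR). GPX7 and TXNRD2 were above 0.05 in both states. Among the 9 late pregnancy libraries, 0 of the 35 genes were called by edgeR (0% of all tested genes) or by DESeq2 (20 of 13342 features). In edgeR 0 had an unadjusted p under 0.05, against 4.14% of all genes. The highest dam feed mean exceeded the lowest by a median factor of 1.09 and at most 1.24. Among the 6 lactation libraries 0 genes were called by edgeR (0.00749% of all genes) and 3 had an unadjusted p under 0.05 (8.57%, against 7.18% of all genes), with factors of 1.13 in the median and at most 1.58.

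These 3 were GSR, SOD3 and PRDX4. GSR was at 41.5 and 43.4 CPM in the HM pools, 22.2 and 31.5 CPM in the MM pools and 28.9 and 36.9 CPM in the LM pools (adjusted p = 0.58, edgeR). SOD3 was at 56.3 and 78.1 CPM in the HM pools, 76.3 and 84.6 CPM in the MM pools and 83 and 113 CPM in the LM pools (adjusted p = 0.65, edgeR). PRDX4 was at 12.1 and 15.5, 19.4 and 19.6, and 15.3 and 15.6 CPM in the same order (adjusted p = 0.65, edgeR). For the interaction of state and dam feed 0 genes were called by edgeR (0% of all genes) or by DESeq2 (19 of 13343 features). In edgeR 2 had an unadjusted p under 0.05 (5.71%, against 6.56% of all genes).

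NADPH feeds both the glutathione and the thioredoxin reductases. Of 13 further genes of NADPH supply 7 rose and 4 fell, beside the 33.1% higher and 35.2% lower of all tested genes, with a median of 0.18. PGD, a dehydrogenase of the pentose phosphate path, rose from 80.1 to 130.7 CPM to 677.8 to 856.8 CPM (2.99 ± 0.09, adjusted p = 1.1e-15, edgeR). Cytosolic malic enzyme ME1 rose by 3.59 and cytosolic IDH1 by 1.51, whereas mitochondrial ME2 fell by 1.91 and mitochondrial IDH2 by 0.89. The folate-path genes MTHFD1 and MTHFD2, the latter found by gene ID, rose by 1.12 and 1.35. TALDO1 was called higher at 0.18 but stood at -0.08 on the quantile-normalized values.

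Of 19 other tested genes of selenoproteins and selenium handling 11 rose and 2 fell (SEPN1 and LRP2), beside the 33.1% higher and 35.2% lower of all tested genes, with a median of 0.40. DIO2, the deiodinase that activates thyroid hormone, went from 1.34 to 3.02 CPM to 42.9 to 70.5 CPM (4.88 ± 0.14, adjusted p = 2.1e-16, edgeR). SELENOF and SELENOM, found by gene ID, and SEPW1 rose by 1.18, 1.34 and 1.3. The receptors that take up selenoprotein P went opposite ways: LRP8 rose from 1.55 to 3.14 CPM to 13.6 to 26.6 CPM (3.00 ± 0.15, adjusted p = 8.5e-13, edgeR), and LRP2 fell from 249.6 to 382 CPM to 4.95 to 8.7 CPM (-5.57 ± 0.14, adjusted p = 5.9e-17, edgeR).

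Of 19 other tested genes of the NRF2 path 7 rose, 1 fell (AKR1A1) and 11 were not called, beside the 33.1% higher and 35.2% lower of all tested genes, with a median of 0.08. The 3 past 2-fold were OSGIN1, an oxidative stress-induced growth inhibitor (1.80), BACH1, a repressor that competes with NRF2 (1.12), and NFE2L1, the related transcription factor (1.17). HMOX1, SQSTM1, EPHX1 and HMOX2 rose by 0.71, 0.71, 0.94 and 0.20, the last at 0.05 on the quantile-normalized values. SLC7A11, the cystine carrier, was at 0 to 1.1 CPM and not tested.

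Of 15 tested genes of glutathione breakdown, cysteine supply and the glyoxalases 6 rose and 5 fell, beside the 33.1% higher and 35.2% lower of all tested genes, with a median of 0.10. CHAC1, which cleaves glutathione inside cells, rose most, from 0.129 to 0.83 CPM to 11.3 to 44.5 CPM (6.17 ± 0.35, adjusted p = 6e-12, edgeR). CDO1, which oxidises cysteine, rose by 1.69, and CTH, which makes cysteine from cystathionine, fell from 117.2 to 194.4 CPM to 18.3 to 28.5 CPM (-2.59 ± 0.12, adjusted p = 1.3e-13, edgeR). GGT6 of the gamma-glutamyl transferases fell by 1.96. All 3 tested further genes of the glutathione transferase type were higher (GSTZ1 0.54, GSTCD 0.52 and PTGES 1.33).

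Of 22 other thioredoxin-fold and methionine sulfoxide genes 13 rose and 5 fell, beside the 33.1% higher and 35.2% lower of all tested genes, with a median of 0.39. ERO1L, which passes electrons from protein disulfide formation to oxygen, rose from 7.32 to 10.3 CPM to 41.5 to 62.4 CPM (2.51 ± 0.10, adjusted p = 2.6e-14, edgeR). PDIA4, found by gene ID, and P4HB, both disulfide isomerases, rose by 1.16 and 0.96, and MSRB2, a mitochondrial methionine sulfoxide reductase, fell by 0.76. PDIA3 was called higher at 0.26 but stood at -0.02 on the quantile-normalized values.

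Of 15 tested sources of oxidants 5 rose and 7 fell, beside the 33.1% higher and 35.2% lower of all tested genes, with a median of -0.61 (-0.24 on the quantile-normalized values). The lactoperoxidase gene LPO went from 0.418 to 10 CPM to 725.5 to 2689 CPM (9.13 ± 0.51, adjusted p = 4.8e-12, edgeR), and XDH, xanthine oxidoreductase, from 1429 to 2356 CPM to 4676 to 6183 CPM (1.49 ± 0.10, adjusted p = 9.5e-11, edgeR). MPO, myeloperoxidase, had at most 4 reads in a late pregnancy library and up to 15.7 CPM in lactation. The phagocyte oxidase genes CYBB, NCF1 and NCF4 fell by 1.00, 1.13 and 1.28, beside falls in 3 of the 4 tested macrophage markers.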

How the data were processed

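RNA of pooled mammary biopsies was sequenced as paired reads. The authors mapped the reads with CLC Genomics Workbench, to genome version 3.2 by the methods and Oar_v3.1 by the labels, and deposited counts of exon reads and of all gene reads, total and unique, for each feature, with RPKM and a quantile-normalized RPKM. Columns with the authors' own comparison (Baggerly's test: fold changes, differences, p-values and corrected p-values) were not used. Exon read counts were tested with edgeR 4.0.16 (quasi-likelihood, TMM, filterByExpr, Benjamini-Hochberg over all tested features, threshold 0.05) in R 4.3.3, with DESeq2 1.42.0, limma 3.58.1 on log2(quantile-normalized RPKM + 1), other scalings and filters, lanes and each library left out as alternatives. The code was tested on simulated data. Intron reads are gene reads less exon reads. Ratios used 0.5 added reads and exact permutation over the libraries, two-sided, adjusted over the 11 gene pairs or, for intron to exon reads, over all 9832 features, in Python 3.11.15 with scipy 1.17.1. Features named by a number were matched by gene ID to RefSeq names of ARS-UI_Ramb_v3.0, of which no coordinates were used, and 861 of 7615 such features matched a name.

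The genes and lists were chosen with earlier results of these data known. Values are given for called genes with the largest changes, for partner pairs and for both regulators, and from other lists for genes past 2-fold or with the largest changes. HMOX1, SQSTM1, EPHX1, HMOX2, AKR1A1, IDH2, TALDO1, SEPN1, GSTZ1, GSTCD, P4HB, MSRB2, PDIA3 and SLC7A11 were named after their values were seen. Single values of some listed genes are not reported here. Low read numbers limit precision by counting error, and the spread between pools does not measure that between ewes.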

Additional observations from a re-analysis of the deposited data

Results flagged for a closer look

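In 5 of 76 groups tested, 1 library lay far from the other libraries of its state by Dixon's test, and chance alone gives about 1 in 20. TXNRD1 was at 36.2 CPM in the late pregnancy pool MMLP_P2, against 28.9 to 32.5 CPM in the other late pregnancy pools. GSTP1 was at 72.5 CPM in MMLP_P3, against 46.6 to 56.9 CPM, and is the late pregnancy value above all lactation values of that gene. KEAP1 was at 27 CPM in LMLP_P2, against 30.6 to 33.2 CPM. GPX7, found by gene ID, was at 7.32 CPM in HMLP_P3, against 4.66 to 5.67 CPM. GSS was at 505.3 CPM in the lactation pool MML_P1, against 320.5 to 388.6 CPM, and is the lactation value inside the late pregnancy range.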

How the results depend on the processing

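On plain library sizes 3 genes were higher and 31 lower and the median was -1.73, with GPX4 at -0.96, PRDX5 -1.59, TXN -1.56, TXN2 -1.67, TXNRD1 -1.57, TXNRD3 -1.43, GLRX3 -1.73, GSR -1.34, GCLC -1.78, GSTP1 -1.70, MGST2 -1.67, MGST3 -1.69, NQO1 -0.61, SRXN1 -1.36 and SEPP1 -1.58 (log2). With the median of all genes set to 0 on that scale, SOD1 was at 0.018 and GLRX5 at 0.00447. Upper quartile scaling gave a median of 0.03046 and GCLC at -0.02443. The quantile-normalized RPKM with 1 added gave 10 higher and a median of -0.05248, with TXN2 at -0.01704, GSTP1 -0.04722, MGST2 -0.03979, MGST3 -0.05248 and SEPP1 -0.06907. With 0.1 added it gave 10 higher and a median of -0.05301, with TXN2 at -0.01744, GSTP1 -0.04763, MGST2 -0.04059, MGST3 -0.05301 and SEPP1 -0.06936. SOD1, near 0, was at 0.0011 with dam feed as a covariate and 0.07822 within lane 8, where GLRX5 was at 0.04853. Lane 7 alone gave 11 higher. The cause of these shifts was not tested.

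With a library left out, 17 to 18 genes were higher and 9 to 11 lower, with a median of 0.163 to 0.2164, SOD1 at -0.0663 to 0.04192, GLRX5 at -0.05664 to 0.01905 and GSR to TXNRD1 at 0.1537 to 0.3268. Of 525 such values 509 kept direction and side of the threshold, 5 lost a call (KEAP1 and GSTP1), 2 gained one (GCLC and PRDX4) and 9 changed sign. With the 5-exon feature, an alternative chosen after the data were seen like the intron-to-exon ratio, SOD1 to SOD2 was at -0.67. DESeq2, unique reads and lane as a covariate moved no call.

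Pools of the 2 states share feed and pool number, but the correlations of their deviations ran from -0.0452 to 0.1201 and the numbers were not taken to pair them. A replicate block over the 6 pairs gave 16 higher, 9 lower and SOD1 at 0.01173, and 8464 genes called in place of 9122. With the pairing, sign flips of the 6 pairs cannot give an exact permutation p under 0.031, and the differences were SOD3 to SOD1 3.49, GPX1 to GPX4 1.70, GPX3 to GPX4 1.34, PRDX4 to PRDX1 0.50, TXNRD1 to TXNRD2 0.44 and PRDX3 to PRDX1 0.33, each at an adjusted p of 0.057.

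Genes with few reads (GLRX, NQO1, TXNRD3 and several intron counts) are the least precise. The SOD1 and GPX8 values rest on reads with few unique placements.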
